A study of Mus musculus with 4 samples.

Results

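Negative regulators of Wnt signalling were followed through the mouse colonic epithelium with 7 genes: Axin2, Rnf43, Znrf3, Sfrp1, Nkd1, Notum and Wif1. They were taken by name, as every probe set whose only gene symbol in the platform annotation was one of these, which gave 16 of 45101 probe sets and 7 of 18194 named genes. A probe set is the group of short probes that reads one transcript region on the array.

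In canonical Wnt signalling, a Wnt ligand bound to a Frizzled receptor and an LRP co-receptor stops the destruction complex from breaking down β-catenin, which then enters the nucleus and switches on target genes with TCF factors. The pathway turns on several of its own inhibitors, so that Axin2, Rnf43, Znrf3, Nkd1 and Notum are used as readouts of its activity as well as brakes on it. Inhibition acts at different steps: Notum, Wif1 and Sfrp1 are secreted and act on the ligand, Rnf43 and Znrf3 remove receptors from the cell surface, and Axin2 and Nkd1 act inside the cell. At the base of the colonic crypt, Wnt signalling maintains stem and dividing cells.

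Expression was read on 4 arrays in 2 pairs, 1 array per group, all from male mice. The labels name no strain, age or number of mice per array. The first pair held crypt cells of H2B-GFP mice, whose histone H2B-GFP fusion is driven by a tetracycline-responsive element. These mice had 7 days of doxycycline and then 2 days without it, and the crypt cells were sorted into GFPhigh (label kept, non-proliferating) and GFPlow (label diluted by division, proliferating). The second pair held colonic crypts of doxycycline-inducible β-catenin mice, either untreated (Dox minus) or after 5 days of drinking water with 2.0 mg/ml doxycycline (Dox plus). Doxycycline and the induced β-catenin entered together, so their effects cannot be told apart. The labels do not name the driver of the doxycycline-dependent activator, and hence not which cells respond.

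With 1 array per group, no difference below has a replicate check and no test between groups was possible. Levels are log2 values, and a level under a floor of 5 was set to 5, because low values are set mostly by the background model. Between 37.6% and 38.7% of probe sets reached the floor on each array. A gene counts as measured in a pair if its level was 5 or more on either array, and its value is that of its probe set with the highest mean. A difference of 1 (2-fold) or more is called past 2-fold. Where 1 level was set to the floor, the deposited difference of that probe set was larger in size, so the value given is a lower bound. The bound does not cover other probe sets of the gene, which can differ by less. Of 8 epithelial markers, 8 reached the floor on every array, while 0 of 6 smooth muscle and 0 of 6 endothelial markers did so on any. Ctnnb1, the β-catenin gene, differed by -0.11 to 0.66 over its 3 probe sets in the Dox pair. Whether those probes read the transgene was not tested.

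Axin2 and Rnf43 were the members furthest above their control in Dox plus, and the regions just upstream of an annotated start of each are shown because both were past 2-fold higher there. The sequences are from RefSeq, build GRCm38.p6, plus strand, 250 bases ending at the base before the start. The Axin2 window is chr11:108920099-108920348, and the Rnf43 window, for the first of its 2 starts in the table, is chr11:87662837-87663086. The Rnf43 start is the first base of the annotated gene, whereas the Axin2 start lies 2521 bases inside the annotated gene, so its window is not the region before the most upstream Axin2 start. Capitals mark GC boxes, GGGCGG on either strand.
Axin2: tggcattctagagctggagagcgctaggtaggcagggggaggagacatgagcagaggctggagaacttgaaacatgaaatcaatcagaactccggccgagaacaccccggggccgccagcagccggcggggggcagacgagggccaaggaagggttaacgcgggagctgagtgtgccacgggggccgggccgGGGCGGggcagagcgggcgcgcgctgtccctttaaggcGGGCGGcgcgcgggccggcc
Rnf43: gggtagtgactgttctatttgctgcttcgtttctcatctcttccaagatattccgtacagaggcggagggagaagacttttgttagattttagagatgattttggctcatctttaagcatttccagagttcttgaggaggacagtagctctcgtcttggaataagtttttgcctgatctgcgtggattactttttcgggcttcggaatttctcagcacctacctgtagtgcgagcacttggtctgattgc
The windows differed in composition. Axin2 had a GC content of 69.2% with 2 GC boxes, beginning 58 and 20 bases before the start, and Rnf43 had 44.4% with 0, against a median of 52.4% over all 32851 promoter windows of this length. A GC box was present in 32.7% of all windows. Neither window held a TCF heptamer, searched on both strands in 4 forms. Of all windows, CTTTGAT was present in 3.21%, CTTTGTT in 5.03%, CTTTGAA in 4.46%, CTTTGTA in 3.2%, and at least 1 form in 14.8%. TATAAA was also in neither, and in 12.4% of all windows. The windows of Nkd1 (again from a start inside the gene), Wif1 and the other Rnf43 start held 0 TCF heptamers too. These counts describe only the letters in these windows.

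Of the 16 probe sets, 9 reached the floor on at least 1 array: 2 for Axin2, 1 for Rnf43, 1 of 2 for Znrf3 and 5 for Sfrp1. The other 7 never did, which left Nkd1, Notum and Wif1 unmeasured. Thus 4 of 7 genes could be compared in both pairs, and counts over these 4 do not stand for all 7.

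**Figure D1:**
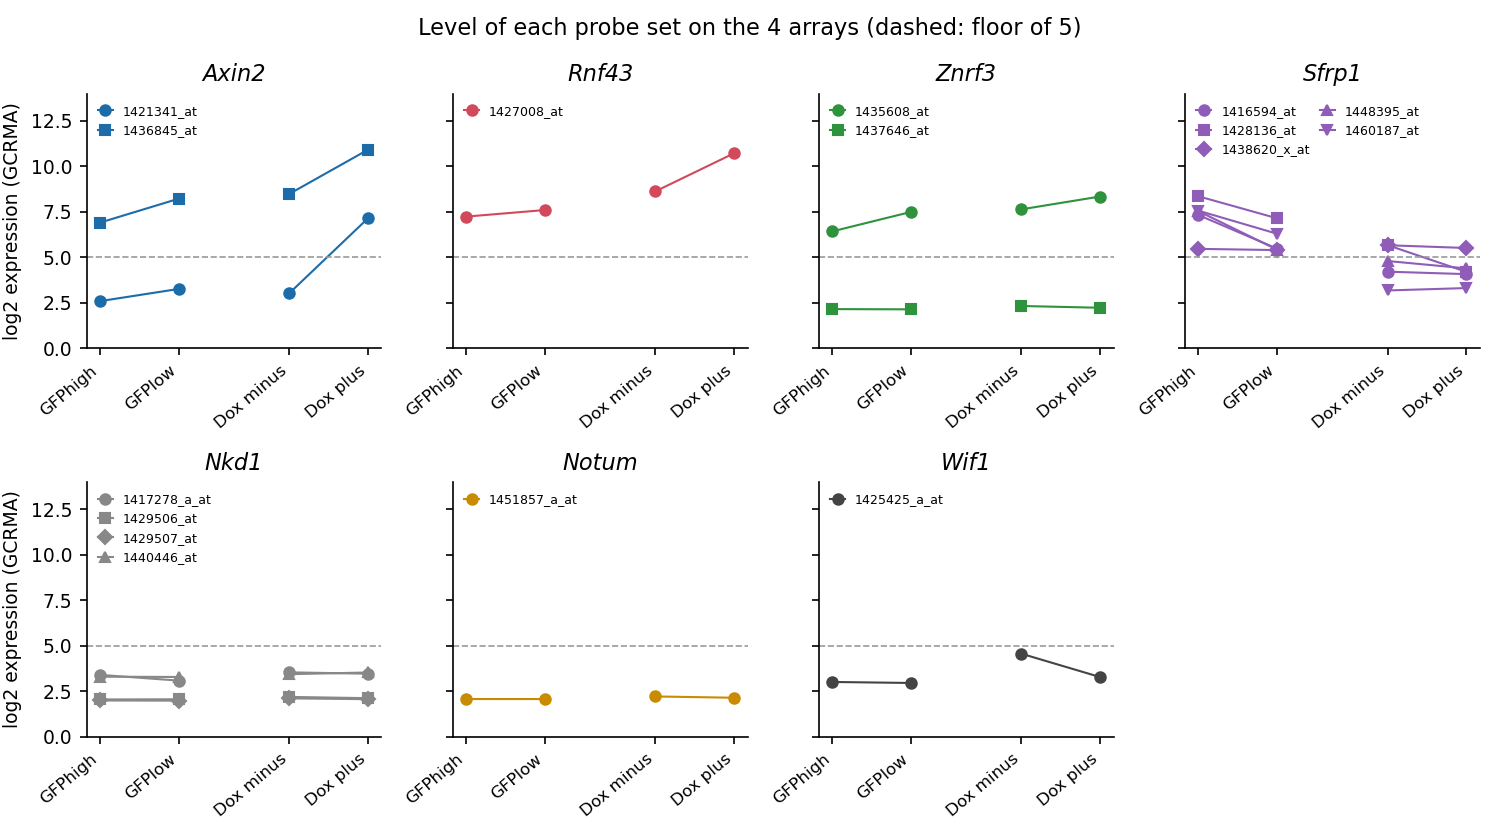
Log2 GCRMA level (y axis) of each of the 16 probe sets on the 4 arrays (x axis), 1 panel per gene, with lines joining the arrays of a pair and a dashed line at the floor of 5. Axin2 and Rnf43 climb steeply from Dox minus to Dox plus, Sfrp1 lies lower in GFPlow than in GFPhigh in 4 of 5 probe sets by more than 2-fold, and Nkd1, Notum and Wif1 stay under the floor.

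Between the sorted populations, the feedback inhibitors Axin2 and Znrf3 were past 2-fold higher in proliferating cells and the secreted antagonist Sfrp1 in non-proliferating cells, while Rnf43 lay between at 0.36. So past 2-fold higher were 2 of 4 measured genes, against 8.81% of all 9381 measured genes, and 1 of 4 was past 2-fold lower, against 4.3%. The median of the 4 differences was 0.72, against 0.04 over all measured genes. In these sorted samples, as in the crypts below, fewer cells of a type and less RNA per cell cannot be told apart.

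Axin2 is a scaffold of the β-catenin destruction complex and the most widely used transcriptional readout of the pathway. Its stronger probe set (1436845_at) read 6.91 in GFPhigh and 8.23 in GFPlow, 8.48 in Dox minus and 10.91 in Dox plus. GFPlow was thus higher than GFPhigh by 1.32 (2.49-fold), and Dox plus higher than Dox minus by 2.43 (5.39-fold). Only 5.63% of measured genes lay as high in the first comparison, and 0.451% in the second, where 42 of 9537 genes stood above it. The weaker Axin2 probe set (1421341_at) read 2.60, 3.27 and 3.02 on the first 3 arrays in the same order and 7.15 in Dox plus. It crossed the floor in Dox plus alone, which makes its difference there at least 2.15 (4.43-fold), and its deposited values differed by 4.12. Both Axin2 probe sets put Dox plus more than 2-fold above Dox minus, as did 7.88% of all 16005 measured probe sets. The weaker one counted as measured there only through its high Dox plus level. Both read the same gene on the same arrays, so they are not separate support. The sorted pair was resolved by 1 of them.

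Rnf43 is a transmembrane ubiquitin ligase that marks Frizzled receptors for removal. Its only probe set (1427008_at) read 7.24 in GFPhigh, 7.60 in GFPlow, 8.62 in Dox minus and 10.72 in Dox plus. In the sorted pair it differed by 0.36 (1.29-fold), and 28.0% of measured genes lay as high or higher. In the Dox pair it differed by 2.10 (4.27-fold), which placed it behind 75 of 9537 genes. Rnf43 was past 2-fold in the Dox pair and not in the sorted pair. Whether the pairs differ in this was not tested, since neither has replicates.

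Znrf3 is the paralogue of Rnf43 and removes Frizzled receptors in the same way. Its measured probe set (1435608_at) read 6.43 in GFPhigh, 7.50 in GFPlow, 7.64 in Dox minus and 8.34 in Dox plus. It was higher in GFPlow by 1.07 (2.10-fold) and in Dox plus by 0.70 (1.63-fold). The sizes thus stood in the other order from those of Rnf43, with the sorted pair showing the larger Znrf3 difference and the Dox pair the larger Rnf43 difference. This order rests on 1 probe set per gene and 1 array per group, and was not tested. The second Znrf3 probe set (1437646_at) read 2.15 to 2.33 on the 4 arrays, with no difference over 0.10, and gives no information on the gene.

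**Figure D2:**
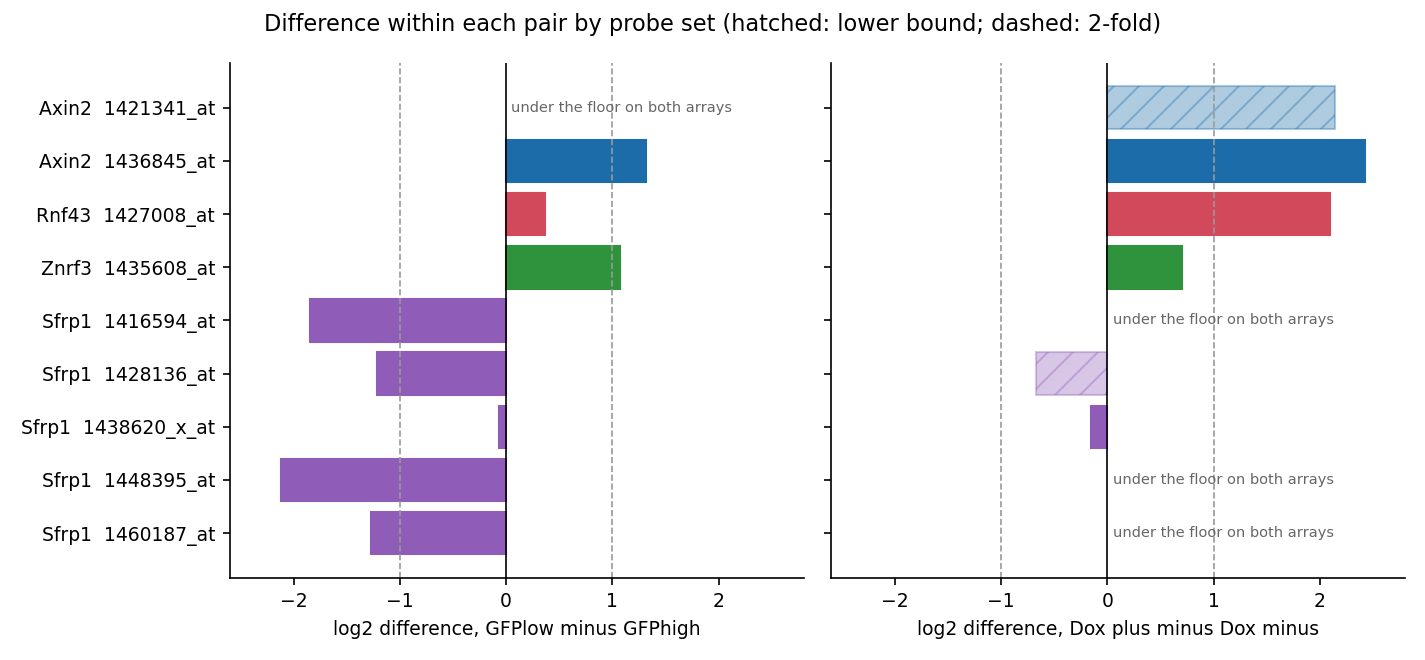
Log2 difference (x axis) of the 9 probe sets that reached the floor (y axis), GFPlow minus GFPhigh on the left and Dox plus minus Dox minus on the right, with dashed lines at 2-fold and hatched bars where 1 array was under the floor. Axin2, Rnf43 and Znrf3 point to GFPlow and Dox plus, all 5 Sfrp1 probe sets point to GFPhigh, and 3 Sfrp1 probe sets were under the floor on both Dox arrays.

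Sfrp1 encodes a secreted Frizzled-related protein that binds Wnt ligands outside the cell. The probe set that represents it (1428136_at) read 8.35 in GFPhigh, 7.14 in GFPlow, 5.67 in Dox minus and 4.21 in Dox plus. In GFPhigh the other 4 probe sets read 7.32 (1416594_at), 7.54 (1448395_at), 7.56 (1460187_at) and 5.47 (1438620_x_at), and in GFPlow 5.48, 5.42, 6.29 and 5.40 in that order. All 5 were thus lower in GFPlow, 4 of them past 2-fold, against 5.67% of all 16025 measured probe sets. They read the same gene on the same arrays, and 1416594_at, 1448395_at and 1460187_at come from the same source sequence. The 5 are therefore not separate support.

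The Sfrp1 differences in the sorted pair ran from -2.12 (4.34-fold) to -0.07 (1.05-fold) with a median of -1.27, and the representing probe set differed by -1.21 (2.32-fold). Of measured genes, 2.57% lay as low. The value nearest 0 came from 1438620_x_at, a type of probe set that can match several transcripts and that read between 5.40 and 5.67 on all 4 arrays. The range over the Sfrp1 probe sets, 2.05, can be set beside that of all 601 genes with 4 or more measured probe sets: the median range was 0.85, and 1 in 10 had a range of 1.72 or more. The Sfrp1 probe sets past 2-fold thus shared their direction, 1438620_x_at stood near 0, and the size was not settled.

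In the Dox pair, Sfrp1 was near the limit of the array. Of its 5 probe sets, 2 reached the floor in Dox minus and 1 in Dox plus. The representing probe set was lower in Dox plus by at least 0.67 (1.59-fold), and by 1.47 in the deposited values, while 1438620_x_at differed by -0.15. The other 3 read between 3.18 and 4.80 in Dox minus and between 3.31 and 4.39 in Dox plus, all under the floor. Sfrp1 was thus readable over all its probe sets in the sorted pair only, and levels were not compared across pairs.

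After doxycycline, Axin2 and Rnf43 were past 2-fold higher, Znrf3 was higher by less, and no measured member was past 2-fold lower. The count higher was 2 of 4, against 6.93% of all 9537 measured genes, and the count lower 0 of 4, against 5.35%. The median of the 4 differences was 1.40, against 0.06 over all measured genes. With a floor of 4, Sfrp1 was past 2-fold lower as well (-1.47), and the median was 0.70 with Wif1 brought in. It was 2.10 with a floor of 6, which left Sfrp1 out. Among the members, Axin2 alone was past 2-fold higher in both pairs, as were 183 of the 9023 genes measured in both, or 2.03%.

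**Figure D3:**
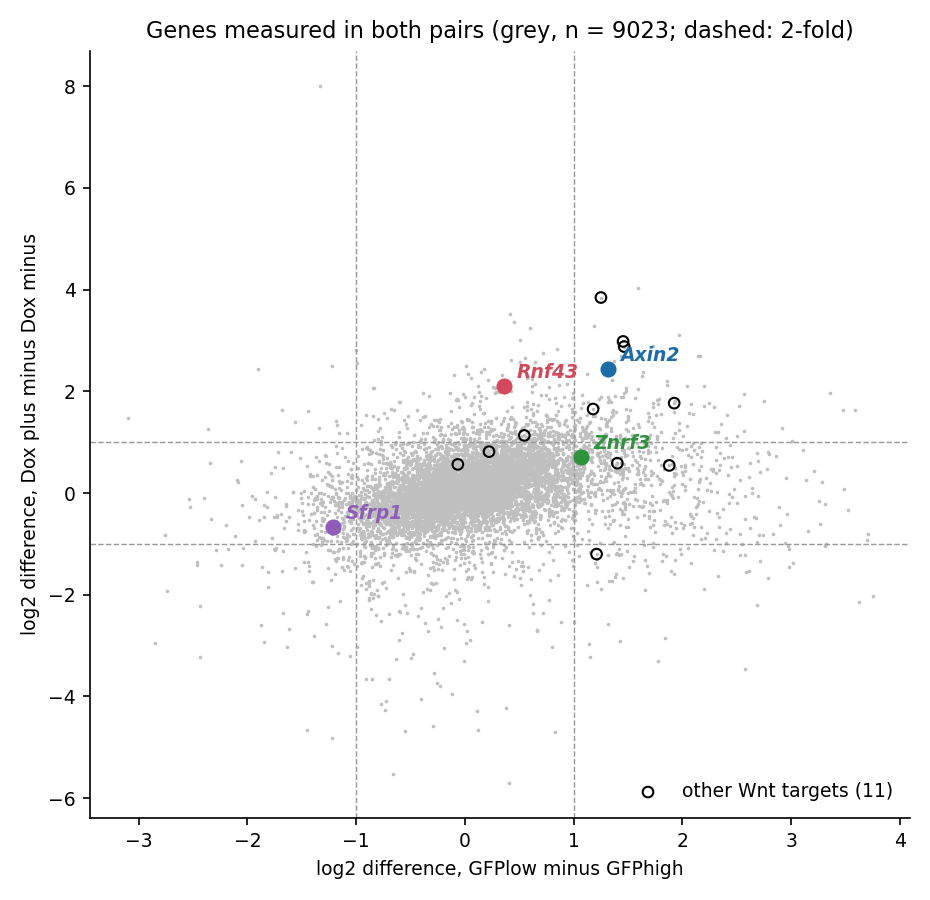
Log2 difference GFPlow minus GFPhigh (x axis) against Dox plus minus Dox minus (y axis) for the 9023 genes measured in both pairs (grey), with the 4 measured members in colour, 11 other Wnt targets as open circles and dashed lines at 2-fold. Axin2 lies past 2-fold on both axes, Rnf43 on the Dox axis and Znrf3 and Sfrp1 on the GFP axis; the Dox value of Sfrp1 is a lower bound in size.

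Nkd1, Notum and Wif1 gave no measurable signal in any group. Nkd1 encodes a protein that binds Dishevelled inside the cell, Notum a secreted enzyme that strips the lipid from Wnt ligands, and Wif1 a secreted ligand-binding inhibitor. Nkd1 had 4 probe sets, of which 1417278_a_at read 3.41 in GFPhigh, 3.09 in GFPlow, 3.55 in Dox minus and 3.47 in Dox plus. The other 3 Nkd1 probe sets differed by -0.07 to 0.09 over both pairs. Notum, with 1 probe set (1451857_a_at), read 2.08 in GFPhigh and GFPlow, 2.22 in Dox minus and 2.15 in Dox plus. The Notum level was low even among unreadable probe sets, at percentile 10.2 to 11.0 of all probe sets.

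Wif1 (1425425_a_at) read 3.02 in GFPhigh, 2.96 in GFPlow, 4.57 in Dox minus and 3.29 in Dox plus. Within the Dox pair, Dox minus was thus the higher, at percentile 60.4 of its array against 48.4 in Dox plus, with both under the floor. The deposited difference in the Dox pair was -1.28, which a floor of 4 reduced to a bound of -0.57. For all 3 genes the values show only that these probe sets were not readable here, not that the genes were off.

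Some marker genes of other cell populations also differed within the pairs. Of 7 proliferation markers on the array, 6 were past 2-fold higher in GFPlow (median 2.18), beside the higher Axin2 and Znrf3. In GFPhigh itself 6 of the 7 still reached the floor, from Plk1 (5.20) to Pcna (12.53). Mcm2 was under it (4.59) and counted as measured in this pair only through GFPlow. In the Dox pair the proliferation markers went both ways (median -0.27, with 1 past 2-fold lower and 0 higher), from Plk1 (-1.04) and Mki67 (-0.67) to Mcm6 (0.82) and Mcm2 (0.91). The log2 of their summed linear level was 13.69 without and 13.98 with doxycycline. That sum is weighted towards Pcna, the highest of the 7 (12.55 and 13.18), while 3 of the 7 differences were above 0 and 4 below it. All 8 colonocyte markers were lower in GFPlow (median -0.90, with 2 past 2-fold), in the direction of Sfrp1. That direction was not particular to them, since all 8 epithelial markers were lower there too (median -0.23, with 0 past 2-fold). Krt20 is in both lists. In the Dox pair 3 of the 8 colonocyte markers were above 0 and 5 below it, with 0 past 2-fold and a median of -0.18. The log2 of the summed colonocyte level was 17.28 in GFPhigh, 16.51 in GFPlow, 16.65 in Dox minus and 16.51 in Dox plus. Of 8 enteroendocrine markers, 8 were past 2-fold lower in Dox plus (median -2.63) and 3 of 7 measured were past 2-fold lower in GFPlow. Tph1 (3.36 in Dox plus) counted as measured in the Dox pair only through Dox minus. Of 8 goblet cell markers, 2 were past 2-fold higher in GFPlow, Spdef (2.94) and Atoh1 (2.64), with a median of 0.52 over the 8, and 1 was past 2-fold lower in Dox plus, Clca1 (-1.54), with a median of -0.36. The log2 of the summed goblet level was 17.29 in GFPhigh, 17.60 in GFPlow, 17.47 in Dox minus and 16.98 in Dox plus. For comparison, the all-gene shares past 2-fold were 8.81% higher and 4.3% lower in the sorted pair and 6.93% higher and 5.35% lower in the Dox pair, with medians of 0.04 and 0.06. The part of these populations in the members' differences was not tested.

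Stromal cells also express secreted Wnt antagonists, and their markers were mostly unreadable. Of 10 fibroblast and mesenchymal markers, the floor was reached by 1 in GFPhigh, 2 in GFPlow, 2 in Dox minus and 1 in Dox plus. The markers Col1a1, Col1a2, Col3a1, Dcn, Lum, Pdgfra, Thy1 and Foxl1 were under it on all arrays. The log2 of the summed level of all 10 was 7.09 in GFPhigh and 7.18 in GFPlow, and stood at 8.86 in the untreated and 7.58 in the treated crypts. The readable pair went different ways in the sorted cells: Pdgfrb, a pericyte and fibroblast receptor gene, read 6.27 in GFPhigh and differed by -0.28 in GFPlow, and Vim, an intermediate filament gene of mesenchymal and immune cells, read 3.50 in GFPhigh and 5.18 in GFPlow. In the Dox pair both were lower after doxycycline, Vim at 8.43 and 6.64 and Pdgfrb at 5.32 and 4.73. Vim was the largest part of the sum of all 10 in both Dox samples, and 8 of the 10 were not measured there. The fall in that sum thus follows mostly Vim and does not show the amount of stroma. Leukocyte markers reached the floor in 0, 2, 5 and 4 of 8 cases on GFPhigh, GFPlow, Dox minus and Dox plus, with log2 summed levels of 5.94, 7.03, 9.29 and 8.27. The part of stromal and immune cells in the members' differences was not tested in either pair.

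Genes with the pair of differences nearest to that of each member were sought among the 8578 genes at or above the floor on all 4 arrays. Likeness was the Euclidean distance over the 2 differences, which rest on 4 arrays. Nearest to Axin2 stood Nop58 (1.27 in the sorted pair and 2.45 in the Dox pair), a core protein of small nucleolar ribonucleoproteins, Rrp1b (1.37 and 2.60), a nucleolar protein of ribosome assembly, and the transcription factor gene Tfap4 (1.13 and 2.35). Only 10 genes lay within 0.5 of Axin2. Nearest to Rnf43 were Slc3a1 (0.27 and 2.06), a subunit of an amino acid transporter, Mvd (0.26 and 2.08), an enzyme of the mevalonate pathway, and Aatf (0.29 and 1.99), with 33 genes within 0.5. Nearest to Znrf3 were Zbtb41, Fam174c and Banf1, at distances of 0.04 to 0.06, but 510 genes lay within 0.5 of it, so its pattern was a common one. Sfrp1 was under the floor in Dox plus and was not placed.

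The upstream parts of the pathway were largely unreadable. Of 19 Wnt ligands, 1 was measured, Wnt6, at 5.01 and 4.96 in the sorted pair and 5.07 and 4.09 in the Dox pair. None of the 4 R-spondins, which bind Lgr receptors and hold Rnf43 and Znrf3 back, reached the floor. Wls, the carrier needed for Wnt secretion, differed by -0.25 in the sorted pair and by -0.46 in the Dox pair. Its 3 measured probe sets in the sorted pair ran from -0.25 to 0.63, so they do not settle its direction there.

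Among receptors, the substrates and partners of Rnf43 and Znrf3, 10 of 19 were measured. Past 2-fold higher in GFPlow were 4 and past 2-fold lower 0, against 8.81% and 4.3% of all measured genes, and the median was 0.48, against 0.04. The 4 were Fzd8 (1.72), Fzd6 (at least 1.68), Fzd7 (1.41) and the R-spondin receptor gene Lgr5 (at least 1.25). Fzd6 (4.90 in GFPhigh) and Lgr5 (4.14) counted as measured only through their GFPlow levels, so that filter set their direction. In Dox plus 1 was past 2-fold higher and 0 lower, against 6.93% and 5.35% of all genes, with a median of 0.09, against 0.06. That gene was Lgr5 (3.84), followed in size by Fzd6 (0.84), Fzd5 (-0.78) and Fzd1 (0.72). The 3 Frizzled genes past 2-fold in GFPlow thus differed by -0.05 to 0.84 in the Dox pair.

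Most other Wnt inhibitors were unreadable. Of 23 on the array, 4 were measured in the sorted pair, with 0 past 2-fold in either direction (8.81% of all genes were higher and 4.3% lower) and a median of -0.13, against 0.04 over all genes, and Kremen1, a co-receptor of Dkk proteins, was furthest from 0 at -0.37. In the Dox pair 5 were measured, with 1 past 2-fold higher and 0 lower, against 6.93% and 5.35% of all genes, and a median of 0.02, against 0.06. That gene was Igfbp4, which binds insulin-like growth factors and is also known to inhibit Wnt signalling. Igfbp4 read 4.51 in Dox minus and 9.82 in Dox plus, a difference of at least 4.82 (28.3-fold), but its 4 measured probe sets ran from 0.35 to 4.82. The probe set behind these levels counted as measured only through Dox plus.

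Destruction complex and TCF genes were near 0 in the median in the Dox pair (0.03 over 16 measured) and slightly below it in the sorted pair (-0.25 over 16). These medians stand against 0.06 and 0.04 over all genes. In GFPlow 0 were past 2-fold higher (8.81% of all genes) and 1 was lower (4.3%), Tcf7l2, the main TCF factor of intestinal epithelium, at -1.27. Next in size came the Dishevelled gene Dvl1 (-0.80), the TCF factor gene Tcf7l1 (0.76) and the co-repressor gene Tle4 (-0.66). Their measured probe sets ran from -0.80 to -0.21 for Dvl1, 0.66 to 0.76 for Tcf7l1 and -1.72 to -0.26 for Tle4. In Dox plus 3 were past 2-fold higher (6.93% of all genes) and 0 lower (5.35%): the β-catenin co-activator gene Bcl9 (1.91), the Groucho-family co-repressor gene Tle3 (1.44) and the Dishevelled gene Dvl2 (1.08). Tcf7l2 differed by -0.93 there, with 3 measured probe sets from -1.50 to -0.83. These counts use 1 probe set per gene. Tcf7l1 (-1.04 to -0.53) also had a probe set past 2-fold lower, and Tle1 (0.86 to 1.15) had one past 2-fold higher. Axin1, the constitutive counterpart of Axin2 in the destruction complex, differed by -0.02 in the sorted pair and -0.11 in the Dox pair, but its 2 measured probe sets in the Dox pair ran from -0.11 to 1.01, so they do not settle its direction there.

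Other Wnt targets are the genes most often read alongside these members. Of 11 measured in the sorted pair, 8 favoured GFPlow past 2-fold (8.81% of all genes) and 0 GFPhigh (4.3%), with a median of 1.25, against 0.04 over all genes. The furthest from 0 were Cdca7 (1.92), the adhesion receptor gene Cd44 (1.88), Myc (1.46) and the stem cell factor gene Ascl2 (at least 1.45). Ascl2 (4.01 in GFPhigh) and Lgr5 (4.14) counted as measured in this pair only through their GFPlow levels. Lgr5 is in both the receptor list and this one. Of 12 measured in the Dox pair, 7 were past 2-fold higher in Dox plus (6.93% of all genes) and 1 lower (5.35%), with a median of 1.39, against 0.06. The furthest were Lgr5 (3.84), Ascl2 (2.98), Myc (2.88) and the metalloprotease gene Mmp7 (1.91). Axin2 lay inside the range of these targets in both pairs. Rnf43 did so in both pairs as well, while Sfrp1 lay below all of them in the sorted pair.

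**Figure D4:**
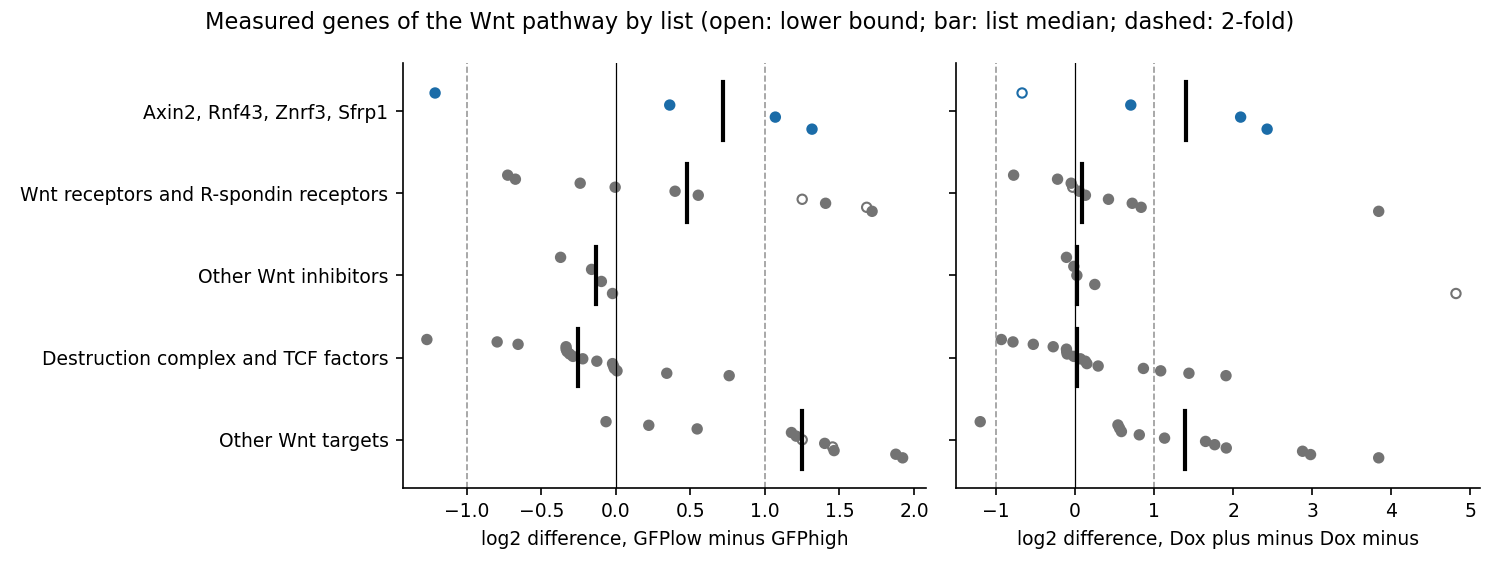
Log2 difference (x axis) of each measured gene of 5 groups (y axis), GFPlow minus GFPhigh on the left and Dox plus minus Dox minus on the right, with a bar at the group's median, open circles for lower bounds and dashed lines at 2-fold. The 4 members spread from -1.21 to 1.32 in the sorted pair and from -0.67 to 2.43 in the Dox pair, and the single high point among other inhibitors is Igfbp4 at 4.82.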

How the data were processed

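The authors deposited 1 log2 value per probe set and array. They used GCRMA, per the submitters' processing notes, which give neither its version nor whether the 4 arrays were processed as one set. GCRMA subtracts a background modelled from probe sequence, so low values carry little information on abundance. The log2 scale was read from the values, which ran from 0.47 to 16.27. Gene names came from a platform annotation, for the 34958 probe sets with 1 symbol. The members' symbols matched a current mouse gene table.

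Precision is limited by the number of arrays. Differences were taken within a pair, after setting values under 5 to 5. Lists were described by counts and medians beside those of all measured genes. Genes were named by rule: all members, the 3 nearest genes to each member readable on all arrays, and up to 4 genes furthest from 0 per pathway list. Ctnnb1 and the cell type markers named lie outside this rule and were chosen after their values were seen. The members and lists were chosen with earlier results of these data known. Alternatives were floors of 4 and 6, no floor, quantile normalization, loess (span 0.4), the mean of probe sets, dropping the _x_at, _s_at and _a_at probe sets, which can match several transcripts, and thresholds of 1.5-fold and 3-fold. Python 3.11.15 with pandas 2.3.3 and statsmodels 0.14.6 was used. The calling of differences was run on simulated data with large changes in strongly expressed genes and little noise. That run checked the code only, not calls near the floor or near 2-fold.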

Additional observations from a re-analysis of the deposited data

How the results depend on the processing

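The differences of Axin2 (1.26 to 1.32 in the sorted pair, 2.29 to 2.43 in the Dox pair), Rnf43 (0.30 to 0.36, 2.02 to 2.10) and Znrf3 (1.03 to 1.07, 0.56 to 0.70) kept their direction and their side of 2-fold under the floors of 4 and 6, no floor, quantile normalization, loess, the mean of probe sets and dropping the _x_at, _s_at and _a_at probe sets. Sfrp1 did so in the sorted pair (-1.30 to -1.21). The levels behind these differences were all above 6, so the floors and no floor could not change them. Dropping probe sets could not either, since the representing ones carry none of those suffixes. The mean could change only Axin2 in the Dox pair and Sfrp1 in the sorted pair. Quantile normalization and loess could change all of them. In the Dox pair Sfrp1 ran from -1.47 (a floor of 4, and no floor), past 2-fold, to -0.41 (mean of probe sets), and a floor of 6 left it unmeasured. The median of the measured members in the Dox pair was 1.40, and became 0.70 with a floor of 4, where Wif1 was also measured, and 2.10 with a floor of 6. The count past 2-fold in the sorted pair, 3, became 0 at a 3-fold threshold, and the count in the Dox pair, 2, became 4 at a 1.5-fold threshold, 3 higher and 1 lower. Quantile normalization changed the share of all genes past 2-fold in the Dox pair that were higher from 56.4% to 47.3%. No paired analysis was possible because each group has 1 array. Signal over background limits Nkd1, Notum and Wif1 in both pairs, and Sfrp1 in the Dox pair.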
